A study of Homo sapiens with 8 samples.

Results

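The E2F family, FOXM1 and MYBL2 are transcription factors that drive or restrain the genes of the cell division cycle. The 10 members were chosen by name, as E2F1 to E2F8, FOXM1 and MYBL2, from the probes whose RefSeq accession maps to those symbols. The rule uses no measured value, but it was set with earlier results of these data known. They are 10 of the 28876 genes tested. All 14 of their probes passed the filter on dim probes, and the brightest probe of each member was well above background on all 8 arrays. The samples were cultures of LNCaP, an androgen-responsive human prostate cancer cell line, profiled on 1-colour Agilent arrays. The 4 siGATA2 cultures received 30 nM of an siRNA against GATA2, a zinc-finger transcription factor, and the 4 siControl cultures received a scrambled siRNA at the same dose, with RNA taken after 72 h in both groups. Every culture was therefore transfected, no untransfected culture was analysed here, and both groups are the same single cell line, described by the submitters as biological replicates.

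E2F proteins bind DNA mostly as dimers with a DP partner, and the pocket proteins RB1, RBL1 and RBL2 hold them in check until cyclin-dependent kinases phosphorylate the pocket proteins late in G1. By textbook class, E2F1, E2F2 and E2F3 are activators of genes for DNA synthesis. E2F4 and E2F5 act mainly as repressors with pocket proteins, E2F6 represses without them through Polycomb-type complexes, and E2F7 and E2F8 are repressors that bind DNA without a DP partner and are themselves made under E2F control. MYBL2 joins the MuvB complex in S phase and FOXM1 joins it in G2, where they turn on mitotic genes.

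The promoters are shown because several members are known to be controlled through E2F sites of their own. In the RefSeq promoter table of assembly GRCh38.p14, which holds 250 bases before and 50 after each gene's start, 7 of the 10 members matched, all but E2F5, E2F8 and FOXM1, and E2F3 had 2 starts. Below are the 100 bases before the start of 5 of them, the 4 called lower that the table holds and E2F3 (first start), 5′ to 3′ on the strand of the gene, with capitals marking E2F-site and CHR letters.
E2F1, chr20:33686386-33686485, minus strand: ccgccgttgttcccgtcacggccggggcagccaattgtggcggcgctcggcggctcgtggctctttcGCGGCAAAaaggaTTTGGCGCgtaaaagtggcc
E2F2, chr1:23531234-23531333, minus strand: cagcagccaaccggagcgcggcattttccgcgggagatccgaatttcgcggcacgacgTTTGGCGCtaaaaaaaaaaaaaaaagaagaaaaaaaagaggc
E2F3, chr6:20401779-20401878, plus strand: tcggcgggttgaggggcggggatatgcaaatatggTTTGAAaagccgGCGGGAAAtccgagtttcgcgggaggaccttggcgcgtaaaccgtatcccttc
E2F7, chr12:77065570-77065669, minus strand: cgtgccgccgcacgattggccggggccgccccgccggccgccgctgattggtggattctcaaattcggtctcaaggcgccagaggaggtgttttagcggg
MYBL2, chr20:43667014-43667113, plus strand: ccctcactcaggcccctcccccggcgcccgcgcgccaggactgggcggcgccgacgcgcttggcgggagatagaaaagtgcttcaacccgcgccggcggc

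The E2F-site letters searched were TTTGGCGC, TTTCCCGC, TTTGCCGC and TTTCGCGC, the CHR (cell cycle genes homology region, an element of mitotic promoters) letters were TTTGAA and TTCGAA, and the CCAAT box was searched as CCAAT, all on both strands of the whole window. E2F1 held 2 E2F-site matches, TTTGCCGC on the opposite strand from base -33 and TTTGGCGC from base -20, counted from the start. E2F2 held TTTGGCGC from base -42. The first start of E2F3 held TTTCCCGC on the opposite strand from base -53 and the CHR letters TTTGAA from base -65, and these matches did not overlap. Of all 35116 promoters in the table, 3.31% held E2F-site letters, 16.4% CHR letters and 34.6% a CCAAT box. CCAAT letters were found 3 times in E2F1, 4 times at the first start of E2F3 and 4 times in E2F7. None of these letters was found in the windows of E2F4, E2F6, MYBL2 or the second start of E2F3. A match of letters is a description of the sequence and was not tied to binding here. Only these exact letters were searched, so a window without a match may still hold a site in other letters.

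The directions given here rest on the labels, and the study's measurements of GATA2 by other methods were not analysed here. In log2 signal, the 4 arrays labelled siGATA2 gave 12.61, 12.54, 11.57 and 11.40 for GATA2 itself, where the 4 labelled siControl gave 11.74, 11.28, 11.09 and 11.29. The groups overlapped, and the difference of 0.68 (standard error 0.313, limma adjusted p = 0.155) was not a fall. Luminal prostate markers were well above background on all 8 arrays for 7 of 7 genes, with a summed linear signal of 244749 to 432307 on the arrays labelled siGATA2 and 403768 to 510738 on those labelled siControl. KLK3 and KLK2, kallikrein genes of this list, were called lower. Of the basal markers 2 of 3 could be tested and neither was above background on every array (summed signal 19.9 to 31.1 and 24.8 to 93.3), and of 5 stromal and other markers COL1A1 and PTPRC were (890 to 1392 and 790 to 1295 for the list). PTPRC, a leukocyte marker, was higher by 0.88 on the log2 scale (limma adjusted p = 0.00142), under the 2-fold threshold, and the part of these markers in the members' values was not tested. Fewer probes were well above background on siControl arrays 3 and 1, 24331 and 28501 of 42405, than on the other 6 arrays, which had 34022 to 36976.

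Of the 10 members, 6 fell on the arrays labelled siGATA2 and none rose. E2F2, E2F7 and E2F8 fell most, by 6.91-fold to 7.17-fold, followed by E2F1, MYBL2 and FOXM1, while E2F3, E2F4, E2F5 and E2F6 did not pass the test. A gene was called here at a Benjamini-Hochberg adjusted p under 0.05 from limma, taken over all genes tested, together with at least a 2-fold difference. By this rule 7.09% of all genes tested were called lower and 4.51% higher, which is 2046 and 1303 genes, and scaling to the E1A spike-ins in place of quantile normalization gave 1855 and 137. In log2 signal the spike-ins averaged 11.13 on siControl array 1, where the other 7 arrays gave 13.45 to 13.83, and spike-in scaling without that array gave 2729 and 1093. At the adjusted p alone the count of members was the same, 6 lower and 0 higher, against 14.1% and 12.3% of all genes. Lower signal in bulk RNA does not tell fewer cycling cells apart from less RNA per cell. Values are log2 quantile-normalized signals of 1 probe per gene, and only differences, not levels, are compared between genes.

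Among the activators, E2F1, the member most closely tied to entry into S phase, read 9.40, 9.21, 9.09 and 9.21 on the arrays labelled siGATA2 (in the order 1 to 4, here and for each member) and 11.17, 11.51, 11.54 and 11.62 on those labelled siControl. The highest array labelled siGATA2 lay well under the lowest labelled siControl. Group means were 9.23 ± 0.128 and 11.46 ± 0.196 (SD, n = 4 each), a difference of -2.23 (standard error 0.131, 95% interval -2.53 to -1.93) or 4.69-fold, with a limma adjusted p of 2.77e-05. The promoter shown above with both E2F-site matches belongs to this gene. E2F3, which did not pass, also held E2F-site letters, while E2F7 and MYBL2, which fell, held none. The part of these letters in the falls was not tested.

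E2F2, a second activator, read 8.58, 8.17, 8.00 and 8.19 on the arrays labelled siGATA2 and 11.04, 10.96, 11.09 and 11.00 on those labelled siControl. The groups were far apart, and the spread was wider among the arrays labelled siGATA2. The difference was -2.79 (standard error 0.137, 95% interval -3.11 to -2.47), a 6.91-fold fall (limma adjusted p = 1.87e-05).

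E2F3, the third activator, read 11.52, 11.34, 11.68 and 11.89 on the arrays labelled siGATA2 and 11.80, 11.94, 11.51 and 11.70 on those labelled siControl. These ranges overlapped almost fully. The difference was -0.13 (standard error 0.155, 95% interval -0.49 to 0.23, limma adjusted p = 0.57), an interval that does not reach a 2-fold fall. A second E2F3 probe gave -0.30 (standard error 0.212, limma adjusted p = 0.342). The 3 activators thus held 2 members that fell and 1 that did not pass.

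Among the repressors, E2F7, which dampens E2F targets late in S phase, read 7.99, 7.70, 7.61 and 7.67 on the arrays labelled siGATA2 and 10.66, 10.56, 10.58 and 10.54 on those labelled siControl. The groups did not overlap and the control arrays lay close together, with an SD of 0.0553. The difference was -2.84 (standard error 0.114, 95% interval -3.10 to -2.58) or 7.17-fold, with a limma adjusted p of 1.31e-05.

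E2F8, its closest relative, read 6.66, 6.30, 6.35 and 6.47 on the arrays labelled siGATA2 and 8.91, 9.87, 9.25 and 9.12 on those labelled siControl. The groups again did not overlap, with siControl array 2 standing above its own group. Group means were 6.45 ± 0.157 and 9.29 ± 0.414 (SD, n = 4 each). The difference was -2.84 (standard error 0.21, 95% interval -3.33 to -2.36, limma adjusted p = 6.71e-05). E2F7 and E2F8 thus fell by the same 7.17-fold, with the wider interval on E2F8.

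The other 3 repressors did not pass the test. E2F4, the main E2F of resting cells, read 11.22, 11.25, 10.77 and 10.76 on the arrays labelled siGATA2 and 10.83, 11.31, 11.41 and 11.45 on those labelled siControl. The groups overlapped, and the difference was -0.25 (standard error 0.191, 95% interval -0.69 to 0.19, limma adjusted p = 0.375).

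E2F5, the relative of E2F4, read 9.91, 9.95, 10.45 and 10.38 against 10.40, 10.82, 10.66 and 10.70. Only siControl array 1 lay within the range of the arrays labelled siGATA2. The difference was -0.47 (standard error 0.167, 95% interval -0.86 to -0.09) or 1.39-fold, and the limma adjusted p of 0.0748 missed the threshold. E2F5 passed at the adjusted p alone under 4 of 23 other settings, all of them at less than 2-fold. It gave -0.56 without siControl array 1 (limma adjusted p = 0.0477) and -0.73 with array weights (limma adjusted p = 0.000951). With a block that pooled title letters A and B, and pooled all other letters, E2F5 gave -0.37 (limma adjusted p = 0.00496). Spike-in scaling without siControl array 1 gave -0.74 (limma adjusted p = 0.036). The block and this scaling were chosen after seeing the data.

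E2F6, the Polycomb-linked repressor, read 11.55, 11.54, 11.97 and 12.06 against 11.70, 12.05, 12.04 and 12.02. The groups overlapped, and the difference was -0.17 (standard error 0.163, 95% interval -0.55 to 0.20, limma adjusted p = 0.469). Its other 2 probes gave -0.17 and -0.18 (limma adjusted p = 0.26 and 0.393). On the first of these the groups narrowly did not overlap, at 7.40 to 7.58 against 7.59 to 7.78. With array weights E2F6 gave -0.40 (limma adjusted p = 0.011).

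FOXM1, the forkhead factor of the G2 programme, read 10.61, 10.35, 10.52 and 10.64 on the arrays labelled siGATA2 and 11.72, 11.98, 12.24 and 12.19 on those labelled siControl. The groups did not overlap. The difference was -1.50 (standard error 0.145, 95% interval -1.84 to -1.17) or 2.84-fold (limma adjusted p = 0.000215). At a threshold of 3-fold in place of 2-fold, FOXM1 was the 1 member lost and 5 remained.

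MYBL2, the MYB-family partner of MuvB, read 9.19, 9.16, 9.07 and 9.06 on the arrays labelled siGATA2 and 10.51, 11.07, 11.21 and 11.28 on those labelled siControl. The arrays labelled siGATA2 lay close together, with an SD of 0.0614, and siControl array 1 was the lowest of its group. The difference was -1.90 (standard error 0.175, 95% interval -2.30 to -1.49) or 3.73-fold (limma adjusted p = 0.000174).

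**Figure D1:**
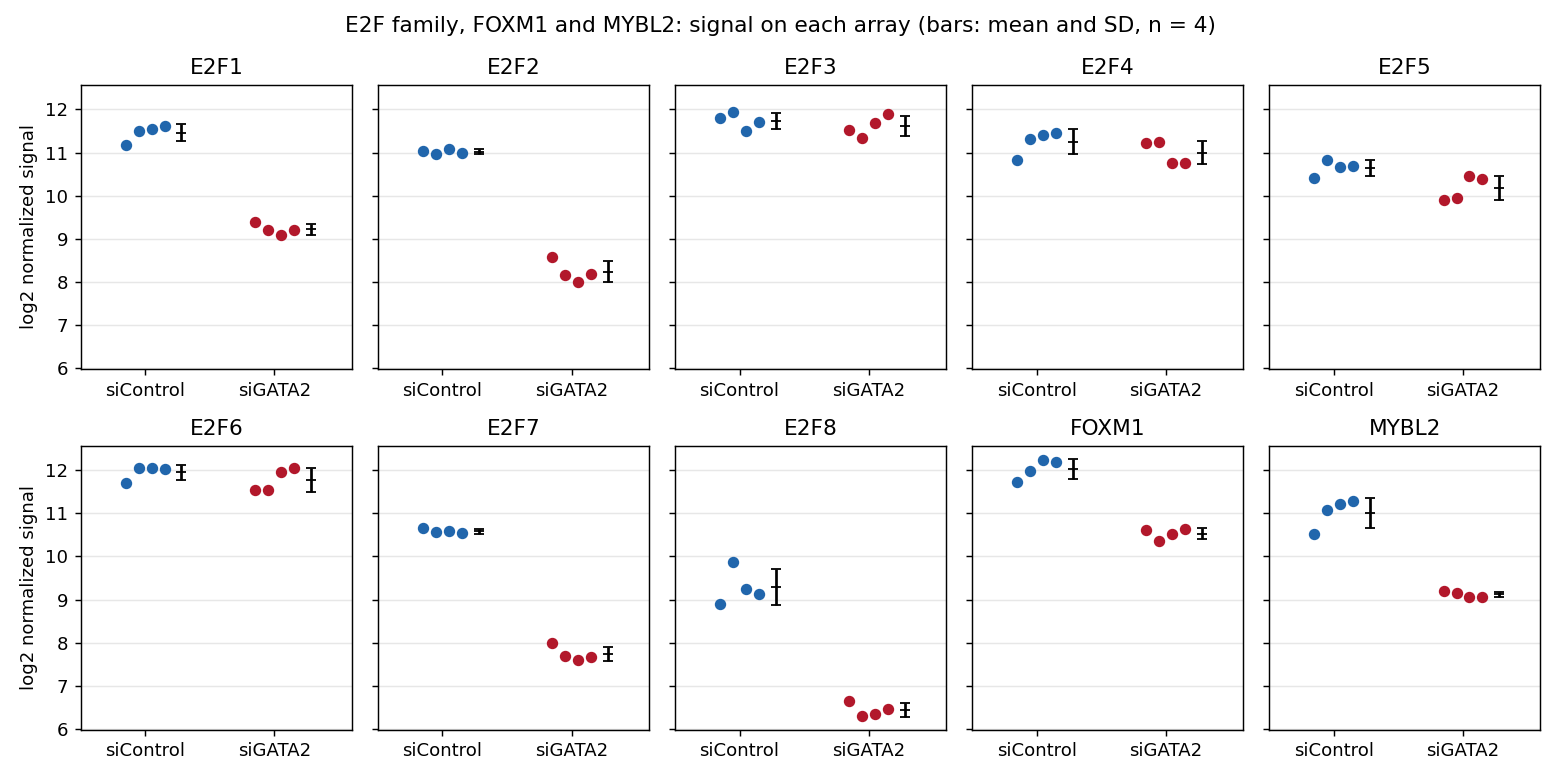
Log2 quantile-normalized signal of each of the 10 members on each array, with arrays labelled siControl as blue points, arrays labelled siGATA2 as red points in the order 1 to 4, and bars for the mean and SD (n = 4). The groups are separate for E2F1, E2F2, E2F7, E2F8, FOXM1 and MYBL2 and overlap for E2F3, E2F4, E2F5 and E2F6.

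The 2 groups did not overlap, with all arrays labelled siGATA2 lower, for 6 of the 10 members, against 16.3% of all genes tested (16.2% did not overlap in the other direction). For each of these 6 an exact two-sided permutation test over the 8 arrays gave p = 0.0286, the smallest that 4 arrays against 4 allow. The same exact permutation test gave 0.0571 for E2F5, 0.171 for E2F4, 0.257 for E2F6 and 0.4 for E2F3. The falls of E2F8, E2F7 and E2F2 stood near the extreme of the whole table, with 0.409%, 0.412% and 0.461% of all genes tested falling further. That share was 1.33% for E2F1, 2.29% for MYBL2 and 4.06% for FOXM1. It was 19.2% for E2F5, 28% for E2F4, 31.8% for E2F6 and 34.4% for E2F3. In order of difference, the interval of each of E2F8, E2F7, E2F2, E2F1, MYBL2 and FOXM1 overlapped that of the next, and no difference between members was tested.

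**Figure D2:**
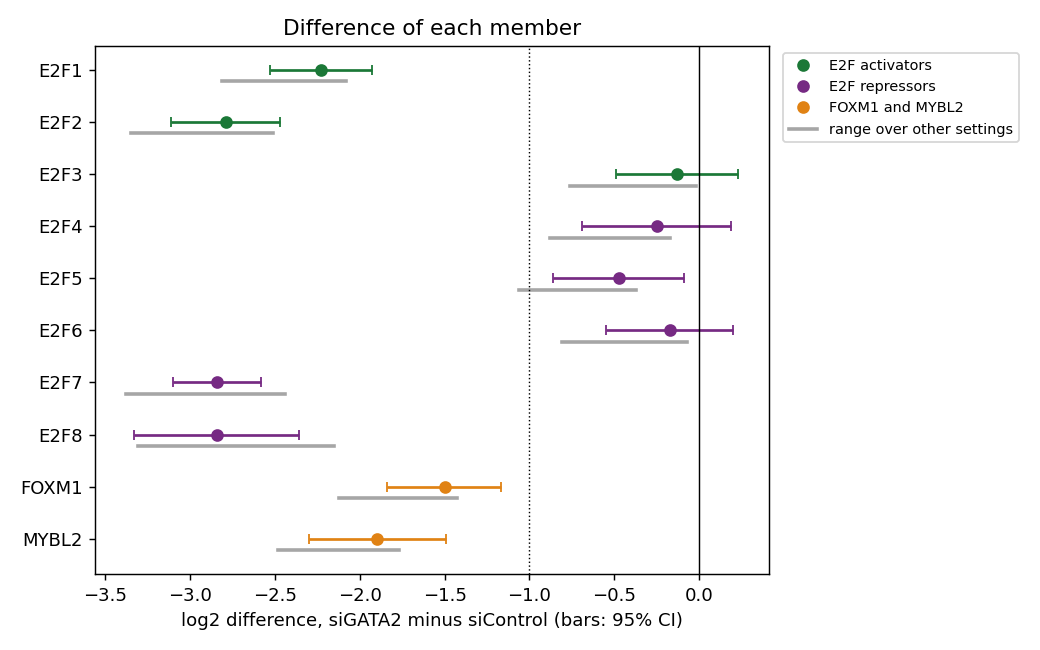
Log2 difference, siGATA2 minus siControl, of each member, coloured by role, with its 95% interval from limma, a grey bar for the range over the other settings and a dotted line at a 2-fold fall. E2F7 and E2F8 lie at -2.84 and E2F2 at -2.79, E2F1 at -2.23, MYBL2 at -1.90 and FOXM1 at -1.50, while the intervals of E2F3, E2F4 and E2F6 include 0 and that of E2F5 ends at -0.09.

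The split ran within both role classes. The activators E2F1 and E2F2 fell while E2F3 did not pass, and the repressors E2F7 and E2F8 fell while E2F4, E2F5 and E2F6 did not pass. On each array, every member's distance from its own siControl mean was averaged over the 3 activators and over the 5 repressors. The activator averages on the 4 arrays labelled siGATA2 were -1.57, -1.84, -1.82 and -1.64, and the repressor averages were -1.28, -1.40, -1.31 and -1.28. The activators were lower on each of these 4 arrays, by 0.40 on average (SD 0.0901), where the same difference on the siControl arrays had an SD of 0.128. This size depended on which repressors were counted, and no activator was left out to see its part. It was -0.11 with E2F6 left out and -1.42 with E2F7 and E2F8 left out. FOXM1 and MYBL2 averaged -1.63, -1.77, -1.73 and -1.68 on the same 4 arrays. No p is given for these averages, since the members were chosen with results of these data known.

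**Figure D3:**
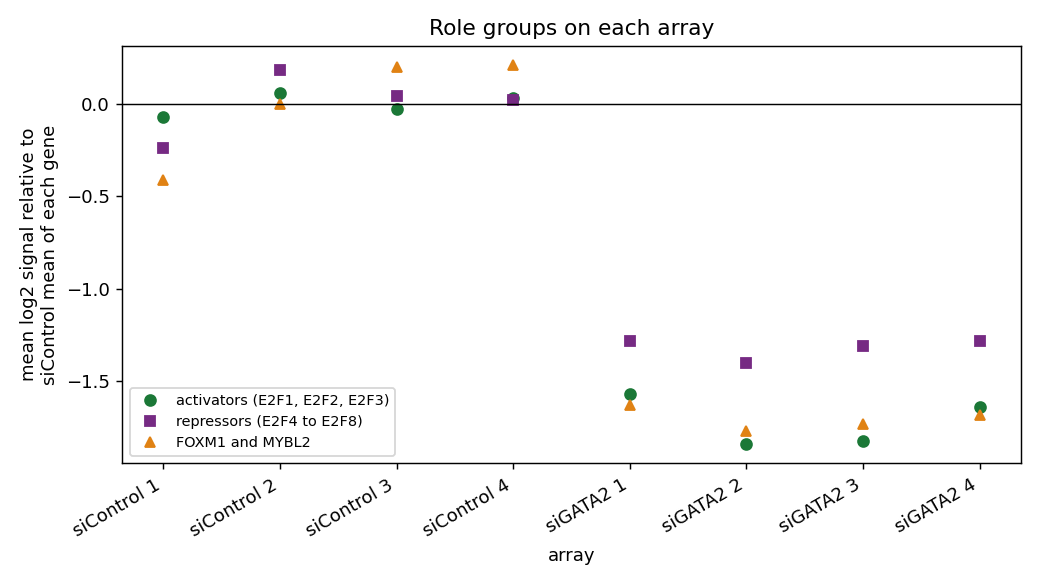
Average log2 distance from the siControl mean on each of the 8 arrays for the activators (E2F1, E2F2, E2F3), the repressors (E2F4 to E2F8) and the FOXM1 and MYBL2 pair. On the arrays labelled siGATA2 the activators lie at -1.84 to -1.57 and the repressors at -1.40 to -1.28, and on those labelled siControl the 3 averages lie between -0.41 and 0.21.

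Several probes or spots measured the same member. E2F1 was printed in 10 spots per array, and the SD between its unflagged spots was 0.0193 to 0.0548 on the log2 scale, small against its difference of -2.23. The second E2F7 probe read 3.00, 2.68, 2.62 and 3.53 against 5.93, 5.66, 5.71 and 5.47. It was well above background on none of the arrays labelled siGATA2 and on 3 of the 4 labelled siControl. The difference was -2.73, and its size is uncertain with signals so near background. Its mean was 2.96 on the arrays labelled siGATA2, under the cutoff of 3, and 5.69 on those labelled siControl. This probe thus passed the filter only through the siControl arrays, and it is not counted as support for the fall of E2F7. E2F8 rested on 1 spot per array.

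**Figure D4:**
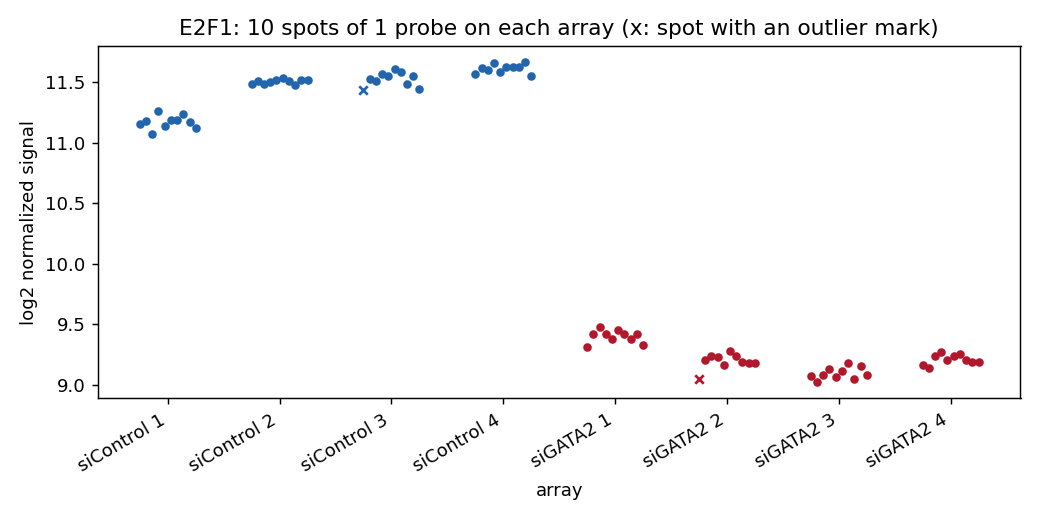
Log2 normalized signal of the 10 E2F1 spots on each of the 8 arrays, with crosses for spots marked as outliers, which were left out. Spots of 1 array scatter by an SD of 0.0193 to 0.0548, and the arrays labelled siGATA2 lie below those labelled siControl.

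Array position and title letters moved with some of the members that did not pass. siControl array 1 was the lowest of its group in 7 of 10 members. Among the arrays labelled siGATA2, arrays 1 and 2, with title letters A and B, differed from arrays 3 and 4, with letters E and F, by -0.36 for E2F3, 0.47 for E2F4, -0.48 for E2F5 and -0.47 for E2F6. These gaps were as large as or larger than the same members' differences between groups, and the part of the letters in them was not tested. The slide had 2 rows, 1 with 3 arrays labelled siGATA2 and 1 labelled siControl and the other the reverse. Within the first and the second row the difference was -2.38 and -2.20 for E2F1, -2.76 and -2.84 for E2F2, -2.77 and -2.93 for E2F7, and -2.68 and -2.88 for E2F8. It was -1.70 and -1.34 for FOXM1 and -2.14 and -1.87 for MYBL2, so the 6 members that fell were lower within both rows. For E2F3 and E2F6 the sign differed between rows, at -0.19 and 0.14 and at -0.34 and 0.13. E2F4 gave -0.37 and -0.43 and E2F5 -0.60 and -0.25.

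Of 6 DP partners and pocket proteins of the E2F proteins, 1 was called lower and none higher, beside 7.09% and 4.51% of all genes tested. The median difference of the list was -0.42 beside 0.09 for all genes tested. RBL1, the pocket protein p107 and itself an E2F target, read 7.49, 7.49, 7.88 and 7.71 against 9.08, 9.31, 9.18 and 9.29. Its groups did not overlap, and it fell by 1.57 (limma adjusted p = 9.48e-05). RB1 and RBL2 both gave -0.02 (limma adjusted p = 0.898 and 0.887). The main DP subunit TFDP1 was lower at the adjusted p alone, at -0.65 (limma adjusted p = 0.00257), while TFDP2 gave -0.18 and TFDP3 -0.83 (limma adjusted p = 0.501 and 0.122).

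Of the 5 MuvB core subunits, which MYBL2 and FOXM1 join, 2 were called lower, beside 7.09% of all genes tested. The list median was -0.43. LIN9 fell by 1.71 (limma adjusted p = 2.79e-05) and RBBP4, a histone-binding protein of several complexes, by 1.20 (limma adjusted p = 8.02e-05). LIN37 was higher by 0.66 (limma adjusted p = 0.00114), under the 2-fold threshold. LIN52 and LIN54 did not pass, at -0.43 and -0.30 (limma adjusted p = 0.304 and 0.277). Both of the other MYB-family genes, with a median of -2.25, were called lower, beside the same 7.09% of all genes. MYB, a proto-oncogene of blood progenitors, read 5.93, 5.92, 5.88 and 6.13 against 8.68, 9.42, 9.26 and 9.38 and fell by 3.22 (limma adjusted p = 2.36e-05), more than any of the 10 members. MYBL1 fell by 1.28 (limma adjusted p = 0.000108).

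None of the 8 genes of the E2F6 complex was called, where 7.09% of all genes tested were called lower and 4.51% higher. The list median was -0.17, near the -0.17 of E2F6 itself. At the adjusted p alone MAX, a dimer partner of MYC and MGA, was lower at -0.40 (limma adjusted p = 0.0387) and the ubiquitin ligase RING1 higher at 0.79 (limma adjusted p = 0.016). PCGF6 gave -0.43, MGA 0.06, L3MBTL2 0.25, CBX3 -0.41, RNF2 -0.69 and YAF2 0.41, with limma adjusted p of 0.107, 0.731, 0.463, 0.0698, 0.109 and 0.14. The list of 7 regulators of the members had a median of -0.09. Beside 7.09% of all genes tested, 3 of the 7 were called lower. These were the kinases CDK2 (-1.72, limma adjusted p = 0.00186) and CDK4 (-1.19, 0.0011), which phosphorylate pocket proteins, and SKP2 (-1.66, 0.00024), a ubiquitin ligase subunit that acts on E2F1. FZR1, the APC/C activator that promotes FOXM1 breakdown, was higher by 0.96 (limma adjusted p = 0.00224), under the 2-fold threshold. CCND1, the cyclin D1 gene, and CDC27, an APC/C subunit, did not pass, at -0.09 and 0.27 (limma adjusted p = 0.666 and 0.319).

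The genes that the members are known to control were mostly lower. Of 30 G1/S genes under E2F control, 21 were called lower and none higher, beside 7.09% and 4.51% of all genes tested. At the adjusted p alone 27 were lower, beside 14.1% of all genes tested. The median difference of the list was -1.49, with a range of -2.60 to -0.40. The largest falls were those of MCM10, a replication initiation factor (-2.60, limma adjusted p = 6.85e-05), TYMS, the thymidylate synthase gene (-2.55, 2.51e-05), and CDC45, a helicase subunit (-2.38, 5.94e-05). The smallest differences were CASP8AP2 (-0.40, limma adjusted p = 0.0426) and CCND3 (-0.41, 0.163).

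Of 30 G2/M genes under MuvB, MYBL2 and FOXM1 control, 29 could be tested, and UBE2C could not. Of these 28 were called lower and none higher, beside 7.09% and 4.51% of all genes tested. All 29 were lower at the adjusted p alone, beside 14.1% of all genes tested. The list had a median of -1.91 and a range of -2.40 to -0.99. The largest falls were those of BIRC5, the survivin gene (-2.40, limma adjusted p = 2.41e-05), CENPE, a kinetochore motor (-2.38, 1.87e-05), and CCNA2, the cyclin A2 gene (-2.35, 7.45e-05). CDK1, the mitotic kinase, was lower by just under 2-fold at -0.99 (limma adjusted p = 0.000376), and CCNF gave -1.02 (0.00951). Both lists were chosen with results of these data known, and no list was tested as a set.

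**Figure D5:**
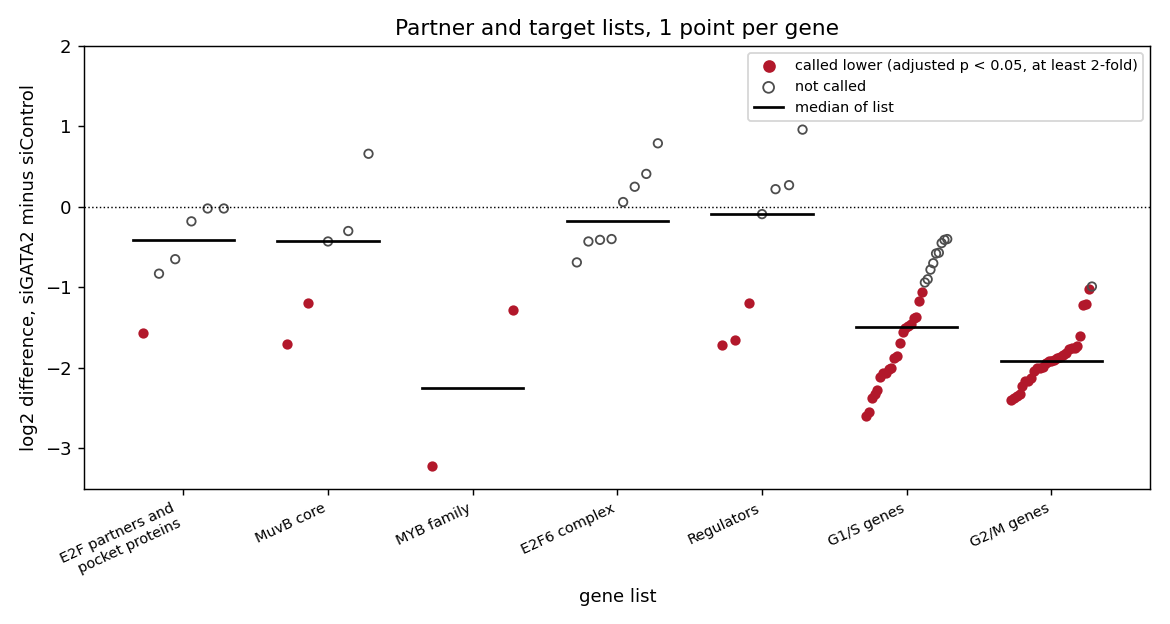
Log2 difference, siGATA2 minus siControl, of each tested gene in the fixed lists, with filled points for genes called lower, open points for genes not called and a line for the list median. The G1/S and G2/M medians lie at -1.49 and -1.91, the MYB-family pair is lowest, and the E2F6 complex and the regulators centre near 0, at -0.17 and -0.09.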

How the data were processed

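The authors deposited, per array, the intensity of each spot as Agilent Feature Extraction 11.0.1.1 (from the submitters' processing notes) wrote it, with quality flags, and a log2 value table, which the authors made by quantile normalization according to their methods. Here log2 processed signals of unflagged spots were averaged per probe and quantile-normalized over 8 arrays. For 210 probe values with every spot flagged, all spots were averaged. Probes lacking annotation, and probes whose log2 mean was under 3, were dropped, leaving 35546. The brightest probe stood for a gene, and 26364 of 42405 probes were named by symbol through RefSeq. Groups came from the labels and were compared with limma 3.58.1 in R 4.3.3, adjusted by Benjamini-Hochberg over 28876 genes.

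The members and lists were chosen with earlier results of these data known. Genes named are the 10 members, GATA2, every gene of lists of up to 8, the 3 largest falls and the 2 smallest in the G1/S and G2/M lists, and the 2 nearest profiles of each member called. Marker genes were named after their values were seen. Of the genes the rule names, 1 is not reported here. Alternatives were 75th percentile or E1A spike-in scaling (7 probes), normexp with an offset of 50 on the median signal, since the files hold no mean signal, the deposited log2 values, other filters and probe rules, the methods' t-test, an intensity trend, array weights, blocks, other thresholds and leaving out arrays. Slide was not run as a block, as there was 1 slide. The array design in the files differs from that in the methods.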

Additional observations from a re-analysis of the deposited data

Results flagged for a closer look

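A single array stood apart from the other 3 of its group in 2 of the 30 groups of 4 arrays examined over the members' probes and the activator minus repressor difference, by Dixon's test, and both were E2F6 on siControl array 1. Its main probe read 11.70 there against 12.02 to 12.05 on the other siControl arrays, so the gap made up 0.917 of the whole range. A second E2F6 probe read 9.93 against 10.31 to 10.38, where the gap was 0.843 of the range. Chance alone flags about 1 in 20 groups. siControl array 1 was also 1 of the arrays with few probes well above background, and the part of that in these values was not tested.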

How the results depend on the processing

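The 6 members that fell were called lower again under 23 of 23 other settings at 2-fold, and no member changed direction. Over these settings E2F1 ranged from -2.81 to -2.08, E2F2 from -3.35 to -2.51, E2F7 from -3.38 to -2.44, E2F8 from -3.31 to -2.15, FOXM1 from -2.12 to -1.43 and MYBL2 from -2.48 to -1.77. Leaving out each array in turn kept 6 members lower, 6 to 7 at the adjusted p alone, 21 to 22 G1/S genes and 27 to 29 G2/M genes, and an activator minus repressor difference of -0.44 to -0.34. That difference was -0.11 without E2F6 and -1.42 without E2F7 and E2F8. Members lower at the adjusted p alone numbered 8 with array weights. A block that pooled title letters A and B, and pooled all other letters, gave 7 such members. Spike-in scaling without siControl array 1 also gave 7. Both of these settings were chosen after seeing the data.

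The same-numbered arrays had correlations of 0.52, -0.30, 0.16 and 0.18 in their deviations. These values do not settle whether the cultures were paired, and pairing by shared title letter was not examined. With a replicate block 6 members were called lower, and 2068 genes lower and 1533 higher. Calls of higher genes, 1303 by the reported fit, were 137 with spike-in scaling, 825 with normexp and 3214 with array weights. Spike-in scaling moved the median of all genes to -0.43, and relative to it E2F3, E2F4, E2F5 and E2F6 gave -0.33, -0.45, -0.63 and -0.38. The 137 calls and the median of -0.43 rested on siControl array 1, without which spike-in scaling gave 1093 higher calls and a median of -0.01. The other causes were not tested. siControl arrays 1 and 3 had the fewest probes well above background, and the part of that in the precision was not tested.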

Other observations

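The 2 genes with a symbol whose centred log2 values over the 8 arrays lay nearest to each member that fell, out of 17874, are given here as a description, with the Euclidean distance in log2 units. E2F2 and E2F7 were each other's nearest profile, at 0.194, and next came AADAT for E2F2 (0.325) and MYC for E2F7 (0.257). E2F1 lay nearest to the replication helicase gene MCM2 (0.216) and to EIF4EBP1, a brake on translation (0.218). FOXM1 lay nearest to USP27X (0.191) and to the primase gene PRIM1 (0.251). MYBL2 lay nearest to SOD2, the mitochondrial superoxide dismutase gene (0.179), and to the noncoding RNA DANCR (0.21). E2F8 had no profile as near, with RFX6 at 0.484 and IGSF5 at 0.545. The 8 arrays form 2 groups, so a small distance mostly reflects a fall of the same size.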
